A study of Saccharomyces cerevisiae with 41 samples.

Results

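The comparison described here sets the 2 ribo-depleted RNA libraries of the yeast strain labelled dis3-1 against the 2 ribo-depleted libraries labelled srm1-ts. These are 4 of the 41 libraries of the series, assigned to their groups by their labels, and the comparison runs over all 11587 annotated features of the table they share. Both strains are budding yeast (Saccharomyces cerevisiae, vegetative cells) whose labels give the background BY4741. One carries the mutant allele dis3-1 and the other srm1-ts. Growth was at 25 °C, followed by 90 min at 37 °C, which the labels call non-permissive, and RNA from milled frozen cells was depleted of ribosomal RNA. The 2 libraries of a strain labelled control, with the same growth and shift, are set beside both mutants. Since the labels do not tie the replicates to separate clones or cultures, the p-values cover variation among these libraries only, which may be technical.

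DIS3 (also called RRP44) encodes the catalytic subunit of the exosome, which digests RNA from the 3′ end. In the nucleus the exosome removes cut-out pieces of the ribosomal RNA precursor, trims small nucleolar RNAs (snoRNAs) and destroys cryptic transcripts, while in the cytoplasm it takes part in mRNA decay. SRM1 (also called PRP20) encodes a chromatin-bound protein that loads the small GTPase Ran with GTP and so keeps up the gradient that import and export carriers use. The pair therefore holds a mutant of nuclear RNA decay against a mutant of nuclear transport, under the same heat shift and in the same kind of RNA.

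The libraries held 12795066 and 14304490 estimated counts in dis3-1, 28934002 and 30993705 in srm1-ts, and 15887796 and 12885166 in the control. Levels are given as CPM, counts relative to the library total after its adjustment by a trimmed mean of M-values factor. These factors were 1.09 and 1.092 in dis3-1, 1.038 and 0.9827 in srm1-ts and 0.7366 and 0.7428 in the control. All features together thus held 917150 and 916020 CPM in dis3-1, 963100 and 1017700 CPM in srm1-ts and 1357700 and 1346400 CPM in the control. Levels set against the control depend on this scaling, and the alternative scalings given below concern dis3-1 over srm1-ts. A feature with no counts in a library is held to a floor of 3 counts, 0.0985 to 0.313 CPM over these 6 libraries, which covers counting error only. The srm1-ts libraries are thus deeper than those of dis3-1. In bulk RNA, a change in the amount of RNA per cell and a change in the share of cells that hold it cannot be told apart, and all levels are relative to the rest of the library.

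The genes that the strains are named for were read first. DIS3 (YOL021C, chrXV:282421-285426) stood at 279 and 273 CPM in dis3-1, 186 and 185 CPM in srm1-ts and 268 and 261 CPM in the control. It was higher in dis3-1 than in srm1-ts by 0.57 on the log2 scale ± 0.0267 (SE, adjusted p = 4.25e-08). SRM1 (YGL097W) stood at 32.1 and 33.4 CPM in dis3-1, 60.1 and 67.4 CPM in srm1-ts and 30.2 and 8.05 CPM in the control, a log2 fold change of −0.96 ± 0.344 (adjusted p = 0.0305). SRM1 overlaps another feature, and its call was lost when any of the 4 libraries was left out (adjusted p of 0.0617 to 0.107) and with DESeq2 (adjusted p = 0.0503). Summed with the feature it overlaps, SRM1 stood at 159.3 and 161.5 CPM in dis3-1 and 307.6 and 296.3 CPM in srm1-ts. The control sum was 147.5 and 151.7 CPM, and the log2 ratio of dis3-1 over srm1-ts −0.91. The level of a transcript does not check a temperature-sensitive allele, so neither gene tests the labels.

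Mating-type and marker genes were read beside the labels. That both mutants express a-type genes was known when the pair was chosen, so the values are a description. The 7 a-specific genes, which are expressed in cells of mating type a, summed to 1223 and 1215 CPM in dis3-1, 409.6 and 412 CPM in srm1-ts and 64.3 and 64.9 CPM in the control. The 4 alpha-specific genes summed to 77 and 73.4 CPM in dis3-1, 76.7 and 76.5 CPM in srm1-ts and 1173 and 1192 CPM in the control. LYS2, intact in BY4741, stood at 402 and 389 CPM in dis3-1, 680.0 and 683 CPM in srm1-ts and 0.769 and 0.313 CPM in the control, and MET17, deleted in BY4741, at 0.502 and 0.448 CPM in dis3-1, 0.0333 and 0.0328 CPM in srm1-ts and 548 and 530.2 CPM in the control. At the mating-type genes, LYS2 and MET17 both mutants thus showed the pattern of BY4741, and the control libraries, labelled BY4741 too, showed the opposite one. Among the other markers ADE2 and TRP1 were higher in dis3-1 (log2 fold changes 0.22 and 0.40), CAN1 did not pass the test (137 and 133 CPM in dis3-1, 134 and 137 CPM in srm1-ts and 118 and 119.5 CPM in the control, adjusted p = 0.903, but 0.08 and called when scaled on ORFs), and HIS3 did not either, at 0 and 0 CPM in dis3-1, 2.53 and 2.4 CPM in srm1-ts and 9.14 and 0 CPM in the control (adjusted p = 0.0602). URA3 stood at 0 and 0 CPM in dis3-1, 0 and 0 CPM in srm1-ts and 14.1 and 11.7 CPM in the control. HIS3 overlaps 4 other features and URA3 overlaps 1. The mutants can be set against each other on this point, but a difference of either mutant from the control and a difference in strain background cannot be told apart.

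Both mutants differed from each other at most of their features. Of 10564 features that passed the filter on low counts, 3844 were higher in dis3-1 (36.4%) and 3866 were lower (36.6%), so that 73% were called at an adjusted p under 0.05. These shares are the background against which every count below is to be read. Among the 3477 tested features that overlap no other feature, 40.1% were higher and 45.7% lower. By class, the median log2 fold change was −0.14 for 6244 open reading frames (ORFs), of which 2239 were higher and 2750 lower. It was 0.70 for 735 cryptic unstable transcripts (CUTs) and 0.29 for 1459 Nrd1-unterminated transcripts (NUTs). Of the 6244 ORFs 4310 had a dis3-1 mean below the control mean (median log2 fold change against the control −0.39). For srm1-ts 3411 did (median −0.14). Counts of genes below or above the control are to be read against these, and they depend on the scaling factors.

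The gene list with the largest median difference was glycolysis, the pathway that breaks glucose down to pyruvate and, in fermenting yeast, ethanol. All 16 listed genes were higher in dis3-1, with a median log2 fold change of 3.35 against 0 over all features tested. Together they held 62390 and 62085 CPM in dis3-1, 8261 and 7924 CPM in srm1-ts and 138650 and 138950 CPM in the control, which is 7.69-fold more in dis3-1 than in srm1-ts. PDC1 (YLR044C, chrXII:232390-234081), pyruvate decarboxylase, stood at 10954 and 10888 CPM in dis3-1, 287 and 254 CPM in srm1-ts and 28071 and 28070 CPM in the control. The libraries of the 3 groups did not overlap, and the level in dis3-1 was 40.4-fold that in srm1-ts (log2 fold change 5.33 ± 0.0632, SE, adjusted p = 6.02e-12).

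All 16 listed genes followed the same order by their means, control above dis3-1 above srm1-ts. GLK1, which encodes glucokinase and was placed in a stress gene list instead, was lower in dis3-1, as given below. ENO2, an enolase, stood at 6279 and 6196 CPM in dis3-1, 228 and 197 CPM in srm1-ts and 13769 and 13589 CPM in the control (log2 fold change 4.87 ± 0.0743, adjusted p = 2.48e-11). FBA1, the aldolase, stood at 5644 and 5606 CPM in dis3-1, 353 and 328 CPM in srm1-ts and 12267 and 12566 CPM in the control (log2 fold change 4.05). TPI1, triose phosphate isomerase, had the smallest adjusted p of the list (4.39e-12), at 1394 and 1386 CPM in dis3-1, 109 and 105 CPM in srm1-ts and 2859 and 2820.5 CPM in the control. Near the entry of the pathway the difference was smaller. PFK1, a subunit of phosphofructokinase, stood at 1476 and 1493 CPM in dis3-1, 548 and 546 CPM in srm1-ts and 2287 and 2243 CPM in the control (log2 fold change 1.44), and the hexokinase HXK2 at 665 and 674 CPM in dis3-1, 579 and 571 CPM in srm1-ts and 1123 and 1109 CPM in the control (0.22 ± 0.0263, adjusted p = 4.37e-05). In all 16 genes the mean of both mutants lay below the control mean, with a median log2 fold change against the control of −1.05 in dis3-1 and −4.20 in srm1-ts. Because TDH1, TDH2 and TDH3, which encode the dehydrogenase of the middle of the pathway, are near-identical copies, they were also summed, giving 12625 and 12517 CPM in dis3-1, 2094 and 1987 CPM in srm1-ts and 24035 and 24002 CPM in the control, 6.16-fold more in dis3-1. The enolase pair ENO1 and ENO2 summed to 8672 and 8616 CPM in dis3-1, 396 and 355 CPM in srm1-ts and 17427 and 17221 CPM in the control.

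**Figure D1:**
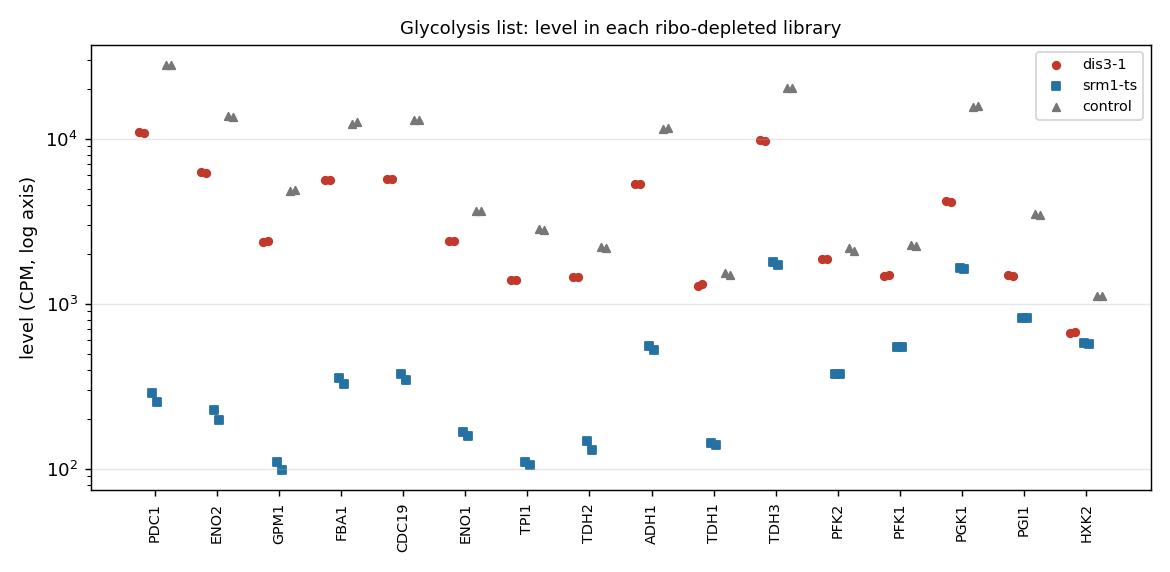
Level of each of the 16 glycolytic genes in each library (CPM, log axis), ordered by log2 fold change, with 2 points per group for dis3-1, srm1-ts and control. The dis3-1 points lie above the srm1-ts points for every gene and below the control points for every gene, from PDC1 (log2 fold change 5.33) to HXK2 (0.22).

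Outside the list CWP2 and PMA1 had the same order. Among the 10 ORFs with the largest rises that overlap no other feature and average 10 CPM or more, chosen after the values were seen, were CWP2, a cell wall mannoprotein, and PMA1, the proton pump of the plasma membrane. CWP2 stood at 1669 and 1576 CPM in dis3-1, 23 and 21.2 CPM in srm1-ts and 2632 and 2725 CPM in the control (log2 fold change 6.20 ± 0.0843, adjusted p = 1.28e-11). PMA1 stood at 9311 and 9374 CPM in dis3-1, 355 and 335 CPM in srm1-ts and 15942 and 15580 CPM in the control (log2 fold change 4.76). HPF1, a cell wall mannoprotein as well, behaved differently towards the control, at 3061 and 3019 CPM in dis3-1, 140.5 and 136 CPM in srm1-ts and 607 and 605 CPM in the control (log2 fold change 4.46): it was above the control in dis3-1 and below it in srm1-ts.

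The dependence on abundance was then described over all ORFs. The 3154 tested ORFs without an overlapping feature were ordered by their control level in CPM per kb and put in 10 bins. The median log2 fold change of dis3-1 over srm1-ts was −0.48 in the lowest bin, of 316 ORFs, lay between −0.22 and −0.07 in the next 7, and was 0.10 in the ninth and 0.41 in the highest. In the highest bin 206 of 316 ORFs were higher in dis3-1 and 92 lower. Spearman's rho over these ORFs was 0.18, and it is given as a description, since ORFs share libraries and are not replicates. By length of the span rho was 0.02.

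**Figure D2:**
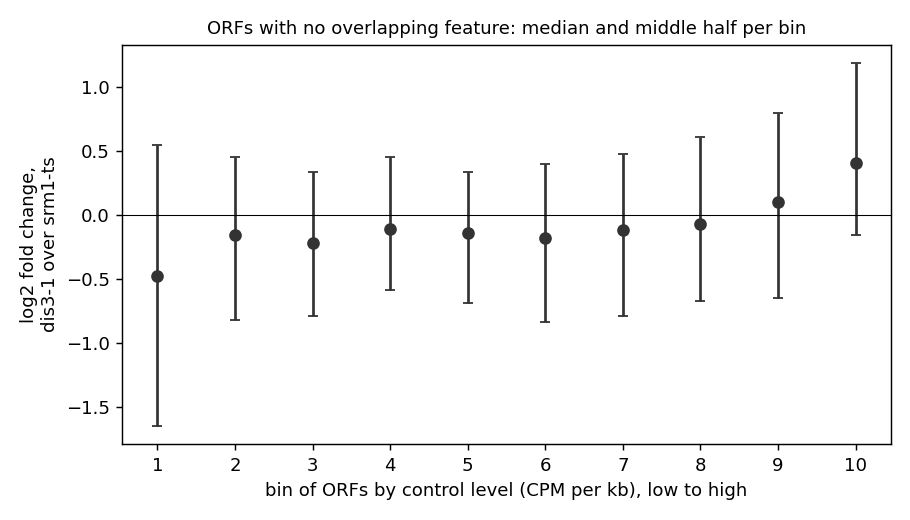
Median log2 fold change of dis3-1 over srm1-ts (points) with the lower and upper quartile (bars) in 10 bins of ORFs without an overlapping feature, ordered by control level in CPM per kb. The median lies below 0 in the first 8 bins and is highest, at 0.41, in the last.

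Heat shock chaperones stood the other way. These proteins keep others folded or pull them from aggregates, and the transcription factor Hsf1 switches their genes on upon heat and other protein damage. Of 30 listed genes 24 were lower in dis3-1 and 3 higher, with a median log2 fold change of −1.94. They summed to 18585 and 18613 CPM in dis3-1, 51031 and 50123 CPM in srm1-ts and 35710 and 35374 CPM in the control. HSP78 (YDR258C, chrIV:971808-974243), a mitochondrial disaggregase, stood at 145 and 154 CPM in dis3-1, 2701 and 2746 CPM in srm1-ts and 259 and 262 CPM in the control, so that the srm1-ts libraries lay 18.2-fold above those of dis3-1 (log2 fold change −4.19 ± 0.0324, adjusted p = 1.25e-12). The disaggregase of the cytosol, HSP104 (YLL026W), stood at 995 and 994 CPM in dis3-1, 6650.0 and 6558 CPM in srm1-ts and 2126 and 2085 CPM in the control (log2 fold change −2.73, adjusted p = 3.94e-12).

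For 15 of the 30 genes the control mean lay between those of the mutants, with srm1-ts the highest. HSP42, a small heat shock protein that gathers misfolded proteins, stood at 158 and 148 CPM in dis3-1, 1812 and 1706 CPM in srm1-ts and 295 and 294 CPM in the control (log2 fold change −3.52, adjusted p = 3.94e-12). BTN2, which sorts aggregates, stood at 37.8 and 40.3 CPM in dis3-1, 567 and 587 CPM in srm1-ts and 67.8 and 66.6 CPM in the control, and SSC1, the mitochondrial Hsp70, at 679 and 681 CPM in dis3-1, 3254 and 3221 CPM in srm1-ts and 1282 and 1301 CPM in the control. The mean in srm1-ts was above the control mean in 21 of 30 genes, and the mean in dis3-1 was below it in 24 of 30. The 4 SSA genes, which encode the cytosolic Hsp70 and share sequence, summed to 6338 and 6359.6 CPM in dis3-1, 16257 and 15663 CPM in srm1-ts and 11723 and 11570 CPM in the control. The members higher in dis3-1 were SSE1, an exchange factor of Hsp70, at 1838 and 1816 CPM in dis3-1, 682 and 681 CPM in srm1-ts and 2867 and 2806 CPM in the control (log2 fold change 1.42), and the ribosome-bound Hsp70 genes SSB2 and SSB1 (log2 fold changes 0.79 and 0.67), which lay below the control in both mutants.

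The promoters of HSP78 and HSP104 are printed here because they hold the Hsf1 target, the heat shock element, searched as 3 alternating units of GAA and TTC, each 2 bases from the next, on both strands. The window runs from 400 to 101 bases before the start codon, 300 bases in all, on the gene's strand (RefSeq, R64), and capitals mark the element, of which each gene holds 2 overlapping matches.
HSP78, chrIV:974344-974643, minus strand: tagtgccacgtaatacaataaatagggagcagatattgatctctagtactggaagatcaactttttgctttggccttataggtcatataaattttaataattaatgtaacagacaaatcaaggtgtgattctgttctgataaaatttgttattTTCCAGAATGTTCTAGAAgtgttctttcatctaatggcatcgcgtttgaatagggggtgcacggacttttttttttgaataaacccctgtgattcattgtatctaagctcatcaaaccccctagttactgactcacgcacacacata
HSP104, chrXII:88223-88522, plus strand: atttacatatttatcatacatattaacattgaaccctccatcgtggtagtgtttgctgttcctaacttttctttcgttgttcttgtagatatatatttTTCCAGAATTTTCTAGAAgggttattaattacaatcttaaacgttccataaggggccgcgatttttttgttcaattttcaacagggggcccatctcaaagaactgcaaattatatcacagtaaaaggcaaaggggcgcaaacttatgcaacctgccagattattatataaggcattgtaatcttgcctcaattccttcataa
Of 5852 ORF promoters with such a window 63 held the element (1.08%), and of the 30 chaperone promoters 13 did (43.3%). A match describes the letters only and is no evidence of binding. Of these 13 genes 11 were lower in dis3-1 (median log2 fold change −1.61), and of the 17 without a match 13 were lower (median −2.08). Over all tested ORFs 34 of 60 with the element were lower (56.7%), against 2503 of 5601 without it (44.7%). These 60 include the 13 chaperone genes, 11 of them lower.

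**Figure D3:**
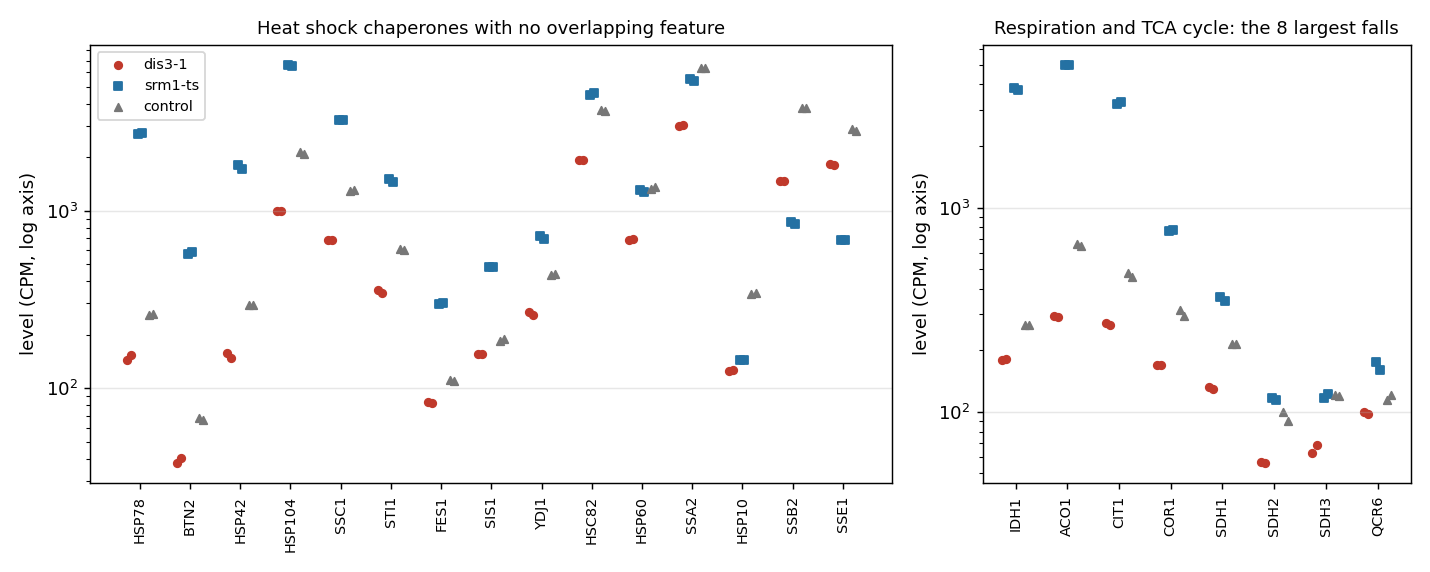
Level in each library (CPM, log axis) of the 15 heat shock chaperone genes without an overlapping feature (left) and of the 8 genes with the largest falls among those of the respiratory chain and TCA cycle without an overlapping feature (right), 2 points per group. For HSP78, BTN2, HSP42 and HSP104 and for IDH1, ACO1 and CIT1 the dis3-1 points lie lowest, the srm1-ts points highest and the control points between them.

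Several genes of the tricarboxylic acid (TCA) cycle and of respiration were lower in dis3-1, among them those of the first steps of the cycle. Of 41 tested genes 22 were lower and 13 higher, with a median of −0.51, and together they held 4125 and 4088 CPM in dis3-1, 20039 and 19946 CPM in srm1-ts and 8051 and 7934 CPM in the control. In srm1-ts the sum lay above the control but most single genes did not: the mean in srm1-ts lay below the control mean in 28 of 41, with a median log2 fold change against the control of −0.62, and the mean in dis3-1 lay below it in 38 (median −0.93). CIT1, citrate synthase, stood at 272 and 267 CPM in dis3-1, 3228 and 3271 CPM in srm1-ts and 476 and 459 CPM in the control (log2 fold change −3.59 ± 0.0268, adjusted p = 1.1e-12). ACO1, aconitase (YLR304C), stood at 296 and 291 CPM in dis3-1, 5008 and 4988 CPM in srm1-ts and 665 and 646 CPM in the control (log2 fold change −4.09, adjusted p = 1.1e-12). IDH1, a subunit of isocitrate dehydrogenase, stood at 179 and 181 CPM in dis3-1, 3849 and 3748 CPM in srm1-ts and 265 and 265 CPM in the control (log2 fold change −4.40). These 3 genes encode the consecutive enzymes that make 2-oxoglutarate, and in each the srm1-ts libraries lay above the control and the dis3-1 libraries below it. IDH2, the other subunit, overlaps another feature and had a log2 fold change of −4.31 (adjusted p = 6.64e-13). DLD3, a dehydrogenase of 2-hydroxyglutarate outside the list, was among the 10 largest falls of ORFs without overlap at 10 CPM or more, at 183 and 189 CPM in dis3-1, 2889 and 2869.9 CPM in srm1-ts and 431 and 424 CPM in the control. Among the genes higher in dis3-1 were those of 2 subunits of ATP synthase, ATP17 at 52.6 and 57.6 CPM in dis3-1, 19.3 and 19.9 CPM in srm1-ts and 101 and 103 CPM in the control (log2 fold change 1.49) and ATP7 at 105 and 101 CPM in dis3-1, 52.2 and 52.8 CPM in srm1-ts and 177 and 179 CPM in the control (0.98).

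The proteasome, which degrades ubiquitin-tagged proteins, was lower in dis3-1 as well. Of 33 genes 24 were lower in dis3-1 and 2 higher, with a median of −0.71. The mean in dis3-1 lay below the control mean in 33 of 33 (median log2 fold change −0.65), while that in srm1-ts lay above it in 18 (median 0.15). Among all 6244 tested ORFs the dis3-1 mean lay below the control mean in 4310 (median −0.39), and the srm1-ts mean above it in 2792. RPN4 (YDL020C), the transcription factor of proteasome genes, stood at 194 and 192 CPM in dis3-1, 891 and 904 CPM in srm1-ts and 216 and 209.8 CPM in the control (log2 fold change −2.22 ± 0.0211, adjusted p = 2.73e-12). The srm1-ts level of RPN4 was 4.66-fold that of dis3-1. The subunit genes RPN1 and PRE7 had log2 fold changes of −1.55 (adjusted p = 4.98e-11) and −1.75 (adjusted p = 6.19e-11). RPN13 and PRE3 were the 2 genes higher in dis3-1 (log2 fold changes 0.67 and 0.51). UBI4, which encodes a string of ubiquitins, stood at 532 and 530.5 CPM in dis3-1, 1685 and 1678 CPM in srm1-ts and 673 and 672 CPM in the control (log2 fold change −1.66, adjusted p = 1.04e-10).

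Rpn4 is known to bind the proteasome-associated control element, searched here as GGTGGCAAA on both strands in the same window. It was found in 69 of 5852 promoters (1.18%) and in 21 of the 33 of proteasome genes (63.6%). Of these 21 genes 17 were lower in dis3-1 (median −1.0), and 7 of the other 12 (median −0.38). Over all tested ORFs 49 of 68 with the element were lower (72.1%), against 2488 of 5593 without it (44.5%). These 68 include the 21 proteasome genes, 17 of them lower. The promoters of RPN4 and of the subunit gene RPT3 are given as examples. Capitals mark a heat shock element in RPN4 and the control element in RPT3. Of the 33 proteasome promoters 1, that of RPN4, held a heat shock element, and a link between both gene sets was not tested.
RPN4, chrIV:416809-417108, minus strand: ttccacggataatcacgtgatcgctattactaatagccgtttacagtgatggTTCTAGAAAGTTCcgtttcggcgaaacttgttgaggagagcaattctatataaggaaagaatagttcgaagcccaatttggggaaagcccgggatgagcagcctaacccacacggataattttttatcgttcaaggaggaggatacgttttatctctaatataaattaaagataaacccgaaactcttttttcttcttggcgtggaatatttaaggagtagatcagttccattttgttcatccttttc
RPT3, chrIV:1261281-1261580, plus strand: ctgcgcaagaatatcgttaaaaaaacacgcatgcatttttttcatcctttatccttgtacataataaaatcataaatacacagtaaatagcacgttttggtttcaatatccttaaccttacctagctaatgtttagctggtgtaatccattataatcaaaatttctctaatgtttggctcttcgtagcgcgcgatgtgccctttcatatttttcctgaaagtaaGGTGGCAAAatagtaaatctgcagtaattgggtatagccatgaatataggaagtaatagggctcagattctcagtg
RPT3 stood at 220.4 and 218 CPM in dis3-1, 442 and 433 CPM in srm1-ts and 314 and 303 CPM in the control (log2 fold change −1.0 ± 0.0319, adjusted p = 3.02e-09).

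Genes for making ribosomes were mostly higher in dis3-1. Ribosome biogenesis factors process and fold the ribosomal RNA precursor in the nucleolus. Of 64 such genes 46 were higher and 15 lower, with a median of 0.61, and the mean lay below the control mean in 55 of 64 in dis3-1 and in 54 of 64 in srm1-ts. NOP7, a factor of the large subunit, stood at 313 and 312 CPM in dis3-1, 148 and 148 CPM in srm1-ts and 401 and 399 CPM in the control (log2 fold change 1.08 ± 0.0189, adjusted p = 6.12e-11). DIP2, a component of the small subunit processome, stood at 474 and 484 CPM in dis3-1, 181 and 184 CPM in srm1-ts and 208 and 204 CPM in the control (log2 fold change 1.39), so that the dis3-1 libraries lay above the control as well. UTP7 and UTP18, also of the processome, were lower, with log2 fold changes of −1.03 and −0.95. ENP1, a factor of the small subunit, was lower too, at 102 and 98.9 CPM in dis3-1, 177 and 176 CPM in srm1-ts and 117 and 122 CPM in the control (log2 fold change −0.82, adjusted p = 2.6e-09).

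RNA polymerase I, which transcribes the ribosomal RNA precursor, had its 2 largest subunits among the genes higher in dis3-1. RPA190 stood at 1204 and 1191 CPM in dis3-1, 388 and 403 CPM in srm1-ts and 1357 and 1332 CPM in the control and RPA135 at 896 and 902 CPM in dis3-1, 279 and 271 CPM in srm1-ts and 1178 and 1163 CPM in the control (log2 fold changes 1.60 and 1.71). RRN3, the initiation factor of polymerase I, was lower in dis3-1, at 152 and 148 CPM in dis3-1, 360.2 and 359.9 CPM in srm1-ts and 50.6 and 46.3 CPM in the control (log2 fold change −1.26), and both mutants lay above the control. Of 20 tested genes of polymerases I and III 11 were higher and 7 lower. Ribosomal protein genes split: 76 of 137 were higher, 47 lower, and the median was 0.15. They summed to 46195 and 46235 CPM in dis3-1, 40823 and 40171 CPM in srm1-ts and 130580 and 129370 CPM in the control, and near-identical paralogs in this list may share reads. RPL8A was higher, at 1231 and 1229 CPM in dis3-1, 184 and 177 CPM in srm1-ts and 886 and 868 CPM in the control (log2 fold change 2.77), and RPS9B lower, at 448 and 441 CPM in dis3-1, 897 and 887 CPM in srm1-ts and 1556 and 1555 CPM in the control (log2 fold change −1.0).

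The promoter of RRP12, a factor for export of ribosomal subunits, is printed because among the biogenesis genes without overlap that hold both of their common promoter elements it had the largest rise. RRP12 stood at 393 and 398 CPM in dis3-1, 141 and 148 CPM in srm1-ts and 448 and 417 CPM in the control (log2 fold change 1.45 ± 0.0365, adjusted p = 6.11e-10). The capitals mark PAC, searched as GCGATGAG, and RRPE, searched as AAAAATTT, both on either strand, in the same kind of window.
RRP12, chrXVI:529323-529622, plus strand: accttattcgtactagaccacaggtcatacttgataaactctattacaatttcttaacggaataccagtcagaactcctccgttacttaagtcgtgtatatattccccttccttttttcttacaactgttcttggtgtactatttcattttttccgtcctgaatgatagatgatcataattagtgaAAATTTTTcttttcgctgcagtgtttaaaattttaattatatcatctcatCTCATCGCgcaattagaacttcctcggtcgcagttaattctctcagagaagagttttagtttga
PAC was found in 208 of 5852 promoters (3.55%) and in 23 of 64 of biogenesis genes (35.9%), and RRPE in 897 (15.3%) and 53 (82.8%). The share of biogenesis genes that were higher was 16 of 23 with PAC and 30 of 41 without it. For RRPE it was 38 of 53 with the element and 8 of 11 without it. Over all tested ORFs, biogenesis genes included, 47.3% with PAC were higher, against 36.7% without it. For RRPE these shares were 44.6% and 35.7%.

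Spacers of the ribosomal RNA precursor, which are known exosome substrates, were higher in dis3-1. The 5′ external transcribed spacer, cut off early in processing, stood at 18121 and 18684 CPM in dis3-1, 2147 and 2006 CPM in srm1-ts and 3487 and 3654 CPM in the control (feature ETS1-1, chrXII:457733-458432). The libraries did not overlap, and the level in dis3-1 was 8.86-fold that in srm1-ts (log2 fold change 3.15 ± 0.0584, adjusted p = 8.48e-11). The 3′ external transcribed spacer (feature ETS2-1, chrXII:451575-451785) stood at 114 and 124 CPM in dis3-1 and at 0 counts in the srm1-ts and control libraries, which makes it at least 1200-fold higher in dis3-1 than in srm1-ts, against the floor of 3 counts per library. Both spacers lie within the feature of the whole precursor, RDN37-1, and reads may be divided between them. Summed with it, ETS2-1 stood at 611.4 and 562.6 CPM in dis3-1, 145.9 and 392.4 CPM in srm1-ts and 256.5 and 239.6 CPM in the control, so that the srm1-ts libraries lay on either side of the control. The internal spacers differed less: ITS1-1 stood at 138 and 129.6 CPM in dis3-1, 54.4 and 52.3 CPM in srm1-ts and 117 and 123 CPM in the control (log2 fold change 1.32) and ITS2-1 at 38.3 and 35.5 CPM in dis3-1, 19.9 and 24.7 CPM in srm1-ts and 118 and 117 CPM in the control (0.73).

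Mature ribosomal RNA, the target of the depletion, differed most between the srm1-ts libraries. Features of ribosomal RNA took 2.29% and 2.22% of counts in dis3-1, 1.6% and 7.59% in srm1-ts and 0.683% and 0.587% in the control. RDN25-1, the 25S gene, stood at 1052 and 312 CPM in dis3-1, 8868 and 50068 CPM in srm1-ts and 2821 and 1998 CPM in the control (log2 fold change −5.43 ± 0.999, adjusted p = 0.00083). Without srm1-ts replicate 2 its log2 fold change was −3.70, without srm1-ts replicate 1 −6.20, without dis3-1 replicate 1 −6.56 and without dis3-1 replicate 2 −4.81. The part of the depletion step in these values was not tested. The 5′ spacer was as high without either srm1-ts library, at 3.10 to 3.20.

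The largest rise among features named with F or R that overlap no other was 12F-188, a transcript of the ribosomal DNA spacer 279 bases from the 5S gene RDN5-1. It stood at 747 and 797 CPM in dis3-1, 4.03 and 4.6 CPM in srm1-ts and 7.86 and 8.46 CPM in the control, a 179-fold difference between the mutants (log2 fold change 7.48 ± 0.0958, adjusted p = 9.19e-12). The srm1-ts libraries lay below the control (log2 fold change −0.91) and the dis3-1 libraries far above both. Of its 528 bases the first 300 by coordinate are printed on the plus strand (RefSeq, R64), with no capitals since no motif was searched. It was chosen as the noncoding feature without overlap with the largest difference. No strand was assigned to 12F-188 here, so the letters may be those of the RNA or of its complement. The ribosomal DNA is repeated, and copies of this spacer cannot be told apart.
12F-188, chrXII:460075-460374, plus strand: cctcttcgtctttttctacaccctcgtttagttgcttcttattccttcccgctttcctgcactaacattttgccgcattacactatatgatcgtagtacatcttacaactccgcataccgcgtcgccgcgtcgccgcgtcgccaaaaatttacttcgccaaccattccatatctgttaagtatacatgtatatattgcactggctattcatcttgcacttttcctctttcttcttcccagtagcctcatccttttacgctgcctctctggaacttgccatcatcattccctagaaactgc

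The next largest rises of this class lay beside genes of cell wall or secreted proteins. 15F-14 lies 28 bases from HPF1 and stood at 159 and 153 CPM in dis3-1, 4.36 and 5.02 CPM in srm1-ts and 21.6 and 20.4 CPM in the control (log2 fold change 5.05), and HPF1 itself had a log2 fold change of 4.46. 9F-2 lies 186 bases from CSS1 and stood at 164 and 165 CPM in dis3-1, 3.59 and 4.07 CPM in srm1-ts and 22.4 and 24.7 CPM in the control (log2 fold change 5.42). Both lay far above the control in dis3-1 and below it in srm1-ts. Their levels were alike in each group, and whether 15F-14 and 9F-2 share sequence, and so reads, was not tested. Of the 133 F/R features without overlap 66 were higher in dis3-1 and 31 lower, with a median of 0.69. The largest fall among those that average 10 CPM or more was 2F-93, between IPP1 and YBR012C, at 6.81 and 6.92 CPM in dis3-1, 49.8 and 51 CPM in srm1-ts and 1.37 and 2.3 CPM in the control (log2 fold change −2.87).

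CUTs are short noncoding RNAs that the nuclear exosome normally removes soon after they are made. Of 735 tested CUTs 293 were higher in dis3-1 (39.9%) and 114 lower (15.5%). Most CUTs overlap another feature, and for the 87 tested ones that do not, 23 were higher, 33 lower, and the median was 0.09. Without any 1 of the 4 compared libraries 20 to 22 were higher and 20 to 21 lower. These 87 stood above the control in both mutants, by a median of 2.42 on the log2 scale in dis3-1 and of 2.39 in srm1-ts, values that share the control libraries. The mean was above the control mean in 82 of 87 in dis3-1 and in 74 of 87 in srm1-ts. Summed, the CUTs without overlap held 550.0 and 560.4 CPM in dis3-1, 555 and 556 CPM in srm1-ts and 208 and 197 CPM in the control.

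Single CUTs without overlap differed in both directions. Among those that average 10 CPM or more the largest rise, CUT_XVI_622706_623218, which lies 309 bases from YOP1, stood at 90.5 and 88.1 CPM in dis3-1, 23.5 and 25.3 CPM in srm1-ts and 25.9 and 25.5 CPM in the control (log2 fold change 1.87 ± 0.0514, adjusted p = 1.08e-09). In srm1-ts it was at the control level. The largest fall within the same limit, CUT_XVI_654990_655118, between YPR044C and THP3, stood at 2.08 and 1.99 CPM in dis3-1, 25.5 and 23.9 CPM in srm1-ts and 0.256 and 0.209 CPM in the control (log2 fold change −3.60 ± 0.151, adjusted p = 1.98e-08). It was thus lower in dis3-1 than in srm1-ts although it was above the control in both. Its 129 bases, on the plus strand and with no motif searched (RefSeq, R64), are printed as a CUT that was higher in the transport mutant than in the exosome mutant. No strand was assigned to it here, so the letters may be those of the RNA or of its complement.
CUT_XVI_654990_655118, chrXVI:654990-655118, plus strand: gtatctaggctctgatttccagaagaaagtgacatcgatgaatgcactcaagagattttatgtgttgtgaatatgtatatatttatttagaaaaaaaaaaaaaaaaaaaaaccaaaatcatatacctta
CUT_IV_768107_768371, between ENT5 and YDR154C, had the next largest fall within that limit, at 4.23 and 4.35 CPM in dis3-1, 26.8 and 26.5 CPM in srm1-ts and 0.427 and 0.94 CPM in the control (log2 fold change −2.63). Among 60 stable-type features named ST without overlap 30 were lower in dis3-1 and 13 higher, with ST7173, between VMA13 and SPO24, at 1.51 and 1.73 CPM in dis3-1, 28.4 and 28 CPM in srm1-ts and 0.427 and 0.836 CPM in the control (log2 fold change −4.12). ST1948, between the cell wall genes PIR1 and PIR3, had the largest rise among those that average 10 CPM or more, at 93.7 and 93.4 CPM in dis3-1, 36.4 and 39.3 CPM in srm1-ts and 36.7 and 41 CPM in the control (log2 fold change 1.31).

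NUTs are transcripts that run on where termination by the Nrd1 complex fails, and snoRNA genes are among the main targets of that complex. Of 55 tested NUTs that overlap a snoRNA or snRNA gene 50 were higher in dis3-1 (90.9%) and 2 lower, with a median of 1.82. Without dis3-1 replicate 1, or without srm1-ts replicate 1, only 1 was lower. Against the control their median log2 fold change was 2.17 in dis3-1 and 0.17 in srm1-ts. They summed to 14300 and 14679 CPM in dis3-1, 4723 and 4751 CPM in srm1-ts and 6833 and 6671 CPM in the control. NUT1178, over snR60, stood at 395 and 399 CPM in dis3-1, 13.9 and 13 CPM in srm1-ts and 22 and 23.4 CPM in the control (log2 fold change 4.88 ± 0.0427, adjusted p = 2.2e-12), and its libraries did not overlap. NUT1269, over snR55 and snR61, stood at 61.7 and 70.2 CPM in dis3-1, 1.6 and 1.77 CPM in srm1-ts and 4.7 and 4.49 CPM in the control (log2 fold change 5.29). NUT1320, over snR86, had another order and stood at 407 and 432 CPM in dis3-1, 20.7 and 21 CPM in srm1-ts and 436 and 451 CPM in the control (log2 fold change 4.33), with dis3-1 near the control and srm1-ts below it. These NUTs share bases with other features, whose reads may be divided among them. The 29 NUTs with no overlap, 18 of them higher in dis3-1 and 2 lower (median 1.09), do not have this limit, and NUT0579 stood at 60.1 and 65.1 CPM in dis3-1, 3.89 and 4.83 CPM in srm1-ts and 24.3 and 20.1 CPM in the control (log2 fold change 3.84). NUT1123 stood at 29.8 and 30.2 CPM in dis3-1, 3.76 and 3.09 CPM in srm1-ts and 4.87 and 4.6 CPM in the control (log2 fold change 3.13). In both the srm1-ts libraries lay below the control and the dis3-1 libraries above it.

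snoRNAs guide chemical modification of ribosomal RNA, and most keep their mature length through trimming by the exosome. Of 47 box C/D snoRNAs 28 passed the filter on low counts, and of these 15 were higher in dis3-1 and 4 lower (median 1.04). Without dis3-1 replicate 2, or without srm1-ts replicate 1, 2 were lower. Of 29 H/ACA snoRNAs 14 were higher and 12 lower (median −0.05). The 11 snoRNAs of both kinds that overlap no other feature had another balance, 9 higher and 1 lower (median 2.0). Of the 6 box C/D rises among them only 1, snR57, averaged 10 CPM or more. All 47 box C/D snoRNAs summed to 4643 and 4092 CPM in dis3-1 and 5347 and 4755 CPM in srm1-ts. In the control their sum was 6150 and 5605 CPM. The box C/D sum was thus lower in dis3-1 than in srm1-ts (ratio 0.865), against the direction of the median. The summed level of the H/ACA class was 15020 and 15343 CPM in dis3-1, 23576 and 22550 CPM in srm1-ts and 23239 and 24351 CPM in the control, and snR30, which took the largest part of it, stood at 6171 and 6400.0 CPM in dis3-1, 14555 and 13975 CPM in srm1-ts and 9968 and 11770 CPM in the control (log2 fold change −1.18). snR49 (H/ACA, chrXIV:716120-716284), which overlaps no other feature, stood at 113 and 123 CPM in dis3-1, 5.39 and 6.07 CPM in srm1-ts and 49.3 and 41.9 CPM in the control (log2 fold change 4.36 ± 0.24, adjusted p = 1.41e-07). It was above the control in dis3-1 and below it in srm1-ts, and it is printed as the snoRNA with the largest rise among those without overlap, with its last ACA in capitals, the box that lies 3 bases before the end (RefSeq, R64).
snR49, chrXIV:716120-716284, plus strand: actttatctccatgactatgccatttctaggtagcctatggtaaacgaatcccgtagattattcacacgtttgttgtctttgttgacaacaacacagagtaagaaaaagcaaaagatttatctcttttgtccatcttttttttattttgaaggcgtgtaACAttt
snR57, a box C/D snoRNA without overlap, stood at 18.3 and 24.8 CPM in dis3-1, 3.13 and 2.3 CPM in srm1-ts and 7.43 and 7.42 CPM in the control (log2 fold change 2.99). The other snoRNAs without overlap that the rule names had smaller changes, 1.23 for snR189, 0.46 for snR85 and −0.32 for snR76. Of 6 spliceosomal RNAs 3 were lower and none higher, among them LSR1, the U2 RNA, at 12608 and 13370 CPM in dis3-1, 23027 and 22646 CPM in srm1-ts and 17745 and 18290 CPM in the control (log2 fold change −0.81).

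**Figure D4:**
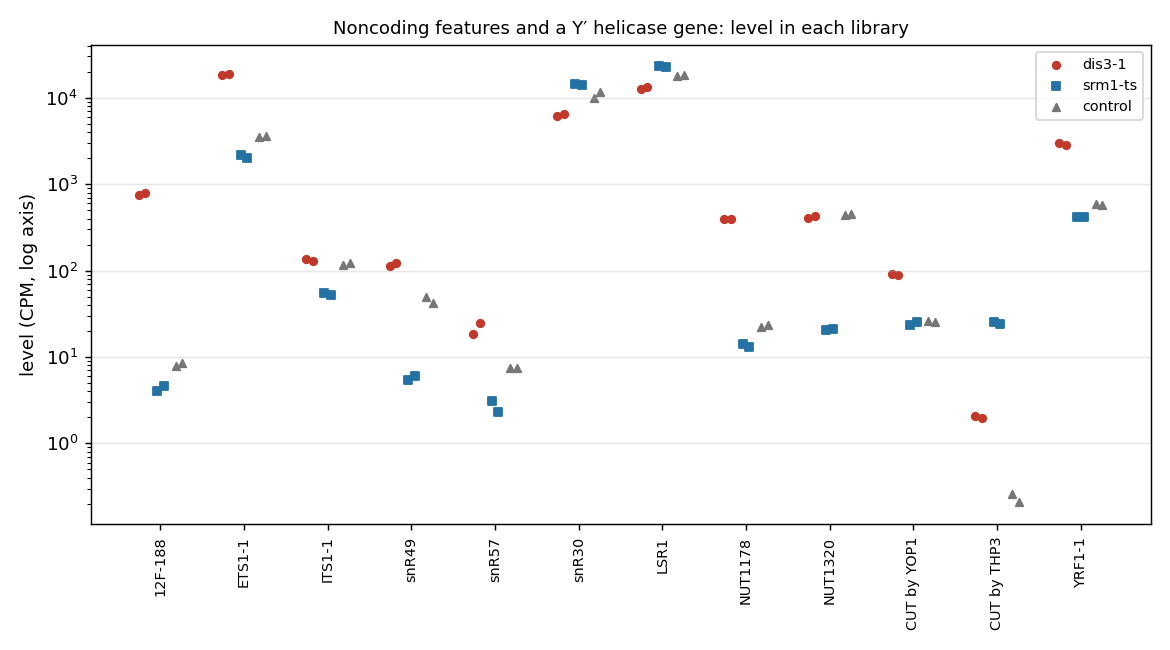
Level in each library (CPM, log axis) of noncoding features named in the text and of YRF1-1, 2 points per group for dis3-1, srm1-ts and control. The dis3-1 points lie highest for 12F-188, ETS1-1, snR49, snR57, NUT1178, the CUT by YOP1 and YRF1-1, while the srm1-ts points lie highest for snR30, LSR1 and the CUT by THP3.

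ORFs near the ends of chromosomes were read by their distance. Of 65 tested ORFs within 5 kb of an end 35 were higher in dis3-1 (53.8%) and 11 lower (16.9%), with a median of 1.03. Of all tested ORFs 35.9% were higher and 44% lower, and of all features 36.4% and 36.6%. The median was 0.04 between 5 and 10 kb and −0.15 beyond 50 kb. Near-identical copies, which may share reads, were counted as separate ORFs. The YRF1 genes, which encode helicases of the Y′ elements of telomeres, were higher in 6 of 6 cases. They are near-identical copies, and their sum was 5367 and 5276 CPM in dis3-1, 825 and 798 CPM in srm1-ts and 1262 and 1259 CPM in the control, 6.56-fold more in dis3-1. The copy with most of the reads, YRF1-1, stood at 2957 and 2809.8 CPM in dis3-1, 421 and 420.4 CPM in srm1-ts and 591 and 578 CPM in the control (log2 fold change 2.78 ± 0.0346, adjusted p = 8.02e-12). YLL067C, another Y′ ORF, stood at 188 and 183 CPM in dis3-1, 16.3 and 13.1 CPM in srm1-ts and 5.47 and 1.57 CPM in the control (log2 fold change 3.66).

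Components of the exosome and of the Ran cycle were read as the pathways in which the mutated genes act. Of 22 genes of the exosome and its cofactors 7 were higher in dis3-1 and 10 lower, with a median of −0.11, close to that of all features. RRP6, the nuclear exonuclease of the exosome, stood at 183 and 177 CPM in dis3-1, 91.7 and 99.5 CPM in srm1-ts and 189.7 and 179.7 CPM in the control (log2 fold change 0.91 ± 0.0456, adjusted p = 7.01e-08). MTR4, the helicase that feeds it, was higher by 0.33. The core subunits RRP40 and RRP43 were lower (log2 fold changes −0.40 and −0.40), and so was SKI2, the helicase of the cytoplasmic exosome (−1.01). For CSL4, the cap subunit, the values were 57.2 and 59.9 CPM in dis3-1, 62 and 57 CPM in srm1-ts and 68.8 and 66.6 CPM in the control, a log2 fold change of −0.02 ± 0.0582 that did not pass the test (adjusted p = 0.746).

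In the Ran list all 23 genes were called, 15 higher in dis3-1 and 8 lower (median 0.55). Without dis3-1 replicate 1 there were 14 higher and 5 lower, and without srm1-ts replicate 2, or scaled on ORFs, 6 were lower. GSP1, the main Ran gene, stood at 490.2 and 487 CPM in dis3-1, 212 and 209 CPM in srm1-ts and 990.2 and 1010.1 CPM in the control (log2 fold change 1.21 ± 0.0361, adjusted p = 1.84e-09). Its paralog GSP2 stood at 28 and 24 CPM in dis3-1, 123 and 124 CPM in srm1-ts and 71.4 and 63.5 CPM in the control, the opposite order (log2 fold change −2.25), although it overlaps another feature. RNA1, the GTPase-activating protein of Ran, and YRB1, its binding partner, were higher in dis3-1 by 1.04 and 1.02. Among the carriers KAP123, an importer of ribosomal proteins, stood at 707 and 699.8 CPM in dis3-1, 271 and 284 CPM in srm1-ts and 1234 and 1204 CPM in the control and NMD5 at 254 and 261 CPM in dis3-1, 62.3 and 64.5 CPM in srm1-ts and 168 and 160.3 CPM in the control (log2 fold changes 1.34 and 2.02). KAP122 had the largest rise, at 168 and 180.1 CPM in dis3-1, 30.4 and 32.6 CPM in srm1-ts and 194 and 182 CPM in the control (log2 fold change 2.47). KAP104, the importer of the mRNA-binding proteins Nab2 and Hrp1, was lower, at 182 and 186 CPM in dis3-1, 375 and 377 CPM in srm1-ts and 242 and 246 CPM in the control (log2 fold change −1.03). Of 31 nuclear pore genes 16 were higher and 11 lower. NUP192, of the inner ring, had a log2 fold change of 1.58 and NUP116, which lines the channel, of −0.75.

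mRNAs for nuclear poly(A)-binding and export proteins were mostly lower in dis3-1, 12 of 19 against 5 higher (median −0.31). HRP1 (YOL123W, chrXV:87844-89448), a cleavage factor that binds mRNA 3′ ends, stood at 398 and 402 CPM in dis3-1, 2861 and 2820.2 CPM in srm1-ts and 175 and 169 CPM in the control. The srm1-ts libraries lay 7.10-fold above dis3-1, with both mutants above the control (log2 fold change −2.83 ± 0.0351, adjusted p = 8.02e-12). NAB2, a nuclear poly(A)-binding protein, stood at 349 and 347 CPM in dis3-1, 714 and 692 CPM in srm1-ts and 248 and 245 CPM in the control (log2 fold change −1.02, adjusted p = 3.36e-09). The export adaptor YRA1 stood at 417 and 421 CPM in dis3-1, 783 and 758 CPM in srm1-ts and 319 and 313 CPM in the control and the export receptor MEX67 at 106 and 103 CPM in dis3-1, 260.2 and 270.1 CPM in srm1-ts and 149 and 156 CPM in the control (log2 fold changes −0.88 and −1.34). PAB1, the main cytoplasmic poly(A)-binding protein, had the opposite order, at 854 and 839.9 CPM in dis3-1, 368 and 361 CPM in srm1-ts and 1537 and 1537 CPM in the control (log2 fold change 1.22 ± 0.0335, adjusted p = 1.1e-09). HRP1, NAB2 and YRA1 are also among the 19 mRNAs listed for control by Nrd1 or the exosome, of which 12 were lower in dis3-1 and 6 higher.

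**Figure D5:**
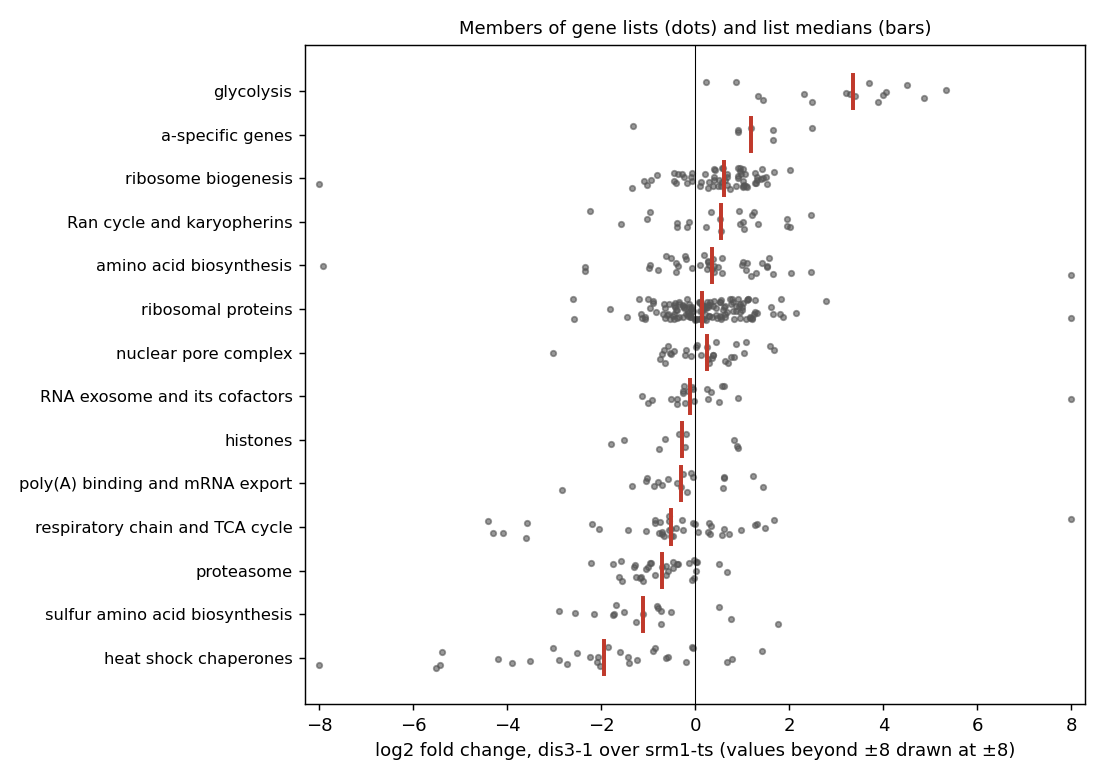
Log2 fold change of dis3-1 over srm1-ts for each tested member (dots) of 14 gene lists, with the list median as a bar, and values beyond 8 in either direction drawn at 8. The medians run from 3.35 for glycolysis at the top to −1.94 for heat shock chaperones at the bottom.

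Amino acid genes fell into 2 kinds. Of 41 listed biosynthesis genes 27 were higher in dis3-1 and 12 lower (median 0.36), with ARO1, of aromatic amino acid synthesis, at 556 and 562 CPM in dis3-1, 179 and 178 CPM in srm1-ts and 1334 and 1328 CPM in the control (log2 fold change 1.65, adjusted p = 4.17e-12) and LEU1, of leucine synthesis, at 334 and 331 CPM in dis3-1, 59.9 and 60.6 CPM in srm1-ts and 588 and 587 CPM in the control (2.46). HOM3, the aspartate kinase, was lower, at 131 and 128 CPM in dis3-1, 652 and 663 CPM in srm1-ts and 243 and 243 CPM in the control (log2 fold change −2.34). Of 17 tested sulfur amino acid genes 14 were lower and 3 higher (median −1.11). MET1 stood at 31 and 32.5 CPM in dis3-1, 144 and 139 CPM in srm1-ts and 48.4 and 48.1 CPM in the control (log2 fold change −2.16), and SAM2, which makes S-adenosylmethionine, at 55.3 and 59.9 CPM in dis3-1, 191 and 189 CPM in srm1-ts and 214 and 205 CPM in the control (−1.72). CYS4, of cysteine synthesis, was higher (log2 fold change 0.75), as were MET22 (1.75) and SAM1 (0.51).

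Cell cycle, histone and mating genes were read next. CLN2, a G1 cyclin, stood at 80.8 and 82.9 CPM in dis3-1, 16.8 and 16.2 CPM in srm1-ts and 129 and 134 CPM in the control (log2 fold change 2.31 ± 0.0359, adjusted p = 2.86e-11). Of 19 G1/S genes 10 were higher and 6 lower. Of 10 histone genes 3 were higher in dis3-1 and 6 lower, or 5 and 5 when counts were summed over overlapping features. The H2A and H2B genes HTA2, HTB1 and HTB2 were higher (log2 fold changes 0.83, 0.88 and 0.90). The H2A gene HTA1 was lower (−0.77), and so were the H3 and H4 genes HHT1, HHT2, HHF1 and HHF2 (−1.52, −0.34, −1.79 and −0.19). HHF1 stood at 191 and 189 CPM in dis3-1, 665 and 653 CPM in srm1-ts and 395 and 407 CPM in the control. Copies of a histone gene resemble each other and may share reads. Of 7 a-specific genes 6 were higher in dis3-1, among them STE2, the receptor for alpha pheromone, at 351 and 354 CPM in dis3-1, 58.4 and 66.9 CPM in srm1-ts and 7.43 and 7.31 CPM in the control (log2 fold change 2.49 ± 0.0612, adjusted p = 5.24e-10). The pheromone genes MFA1 and MFA2 were higher by 0.90 and 1.66 on the log2 scale. Of the 4 alpha-specific genes SAG1 was higher (0.45) and the other 3 lower. Of 20 tested genes of the mating pheromone response 10 were lower and 6 higher, with the fusion gene FUS1 at 32.5 and 29.8 CPM in dis3-1, 98.9 and 99.6 CPM in srm1-ts and 53.1 and 52.5 CPM in the control (log2 fold change −1.67) and SST2, which damps the response, at 143 and 148 CPM in dis3-1, 37.4 and 38.9 CPM in srm1-ts and 113 and 104 CPM in the control (1.93).

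The remaining lists gave mixed counts. In the list of 24 targets of the stress factors Msn2 and Msn4, 8 genes were higher in dis3-1 and 12 lower (median −0.70), with GSY1, a glycogen synthase, and GLK1, glucokinase, lower by log2 fold changes of −2.37 and −1.70 and YGP1 higher (2.75), all 3 of which overlap another feature. Of 13 genes of the unfolded protein response in the endoplasmic reticulum 7 were lower and 3 higher (median −0.76). ERO1, which forms disulfide bonds there, stood at 160.1 and 163 CPM in dis3-1, 528 and 546 CPM in srm1-ts and 254 and 237 CPM in the control (log2 fold change −1.73), and KAR2, the Hsp70 of that compartment, at 459.5 and 468 CPM in dis3-1, 1099.7 and 1100.0 CPM in srm1-ts and 1779.7 and 1733 CPM in the control (−1.25). Of 15 genes of the phosphate starvation response 6 were higher and 6 lower (median 0.14), with the phosphate transporter PHO89 at 13.3 and 14.7 CPM in dis3-1, 54.7 and 55.2 CPM in srm1-ts and 27.6 and 26.5 CPM in the control (log2 fold change −1.97). Of 20 meiotic genes 8 were higher and 6 lower (median 0), among them IME2, a meiotic kinase, which was lower by a log2 fold change of −1.27. Of 18 cleavage and polyadenylation genes 10 were lower and 4 higher (median −0.18), with CFT1 lower (−0.70) and CFT2 higher (1.08). Of 5 genes of the Nrd1 termination pathway SEN1, its helicase, was higher (0.82), while NAB3 and PCF11 were lower (−0.52 and −0.14). ORFs with an annotated intron did not stand apart by median, at 0.08 for 261 ORFs, of which 120 were higher and 106 lower.

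Other falls in dis3-1 concerned genes that were low in both dis3-1 and the control. ECM13 stood at 15.3 and 13.8 CPM in dis3-1, 870.4 and 863 CPM in srm1-ts and 13.8 and 14.9 CPM in the control, a log2 fold change of −5.90 ± 0.0536 (adjusted p = 2.27e-12), and SPO19, a meiosis-specific prospore protein, at 4.3 and 3.97 CPM in dis3-1, 149 and 166 CPM in srm1-ts and 0.427 and 0.313 CPM in the control (−5.25). FLR1, a multidrug transporter, stood at 52.9 and 50.7 CPM in dis3-1, 812 and 815 CPM in srm1-ts and 36.6 and 34.8 CPM in the control (log2 fold change −3.97). These 3 are among the 10 largest falls of ORFs that overlap no other feature and average 10 CPM or more, a choice made after the values were seen.

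The largest fold changes of all were those of features that share bases with another. Of the called features 266 had 0 counts in both dis3-1 libraries, 263 of which overlap another feature, and 221 had 0 counts in both srm1-ts libraries, all of which do. All 10 ORFs with the largest rises and all 10 with the largest falls, at 10 CPM or more, were of this kind. FKS3, a glucan synthase homolog, was at least 933-fold higher in dis3-1 and MMS1, of DNA repair, at least 883-fold, while RIM15, a kinase of the stationary phase, was at least 973-fold lower and INO1, of inositol synthesis, at least 915-fold. Summed with every feature that overlaps it, FKS3 had a log2 ratio of 2.07, MMS1 of 0.78, RIM15 of −1.27 and INO1 of −1.22. The sums lay within 2-fold in 7 of the 10 rises and 3 of the 10 falls, and for RGT1 and DAS1, both at 0 in dis3-1, the sums were higher in dis3-1 (log2 ratios of 1.53 and 1.12). Among the rises the sums of YPK2, GLG1 and ETT1 were lower in dis3-1 (log2 ratios of −0.44, −1.17 and −0.59), and those of LYS21, TES1, MSC2 and SCY1 were higher. For YDR222W the summed levels of the libraries overlapped (log2 ratio −0.03). Among the falls the sums of HER1, SSO2, HXT5, CTA1, URA8 and PRR2 were lower. NRD1 itself was of this sort: its feature had a log2 fold change of −7.16 (−15.69 without dis3-1 replicate 1 and not called with DESeq2, adjusted p = 0.21) and, summed with NUT0633, a log2 ratio of −1.16. For such a feature a change in RNA and a change in how reads were divided cannot be told apart. Of the features whose levels are given above, SRM1, HIS3, URA3, MET17, SSB1, IDH2, KAP123, GSP2, FUS1, snR30 and YRF1-1 share bases with another. So do the ribosomal DNA features other than 12F-188 and the NUTs over snoRNA genes. Copies raise the same limit, since ENA2 had a log2 fold change of 5.36 while the 3 ENA genes, near-identical sodium pumps, summed to 1025 and 1019.5 CPM in dis3-1, 1306 and 1293 CPM in srm1-ts and 779 and 765 CPM in the control.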

How the data were processed

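Ribo-depleted RNA of budding yeast was sequenced as paired 50-base reads from a stranded kit, per the labels' protocols. The authors deposited 1 table of estimated counts per annotated feature for 13 libraries. The submitters' processing notes name Salmon 0.12.0, Trimmomatic 0.39, bedtools, DESeq and DESeq2 1.26.0 and the build sacCer3 (R64). How reads that fall on overlapping features were assigned is not given in the sources used here. Estimated counts were rounded to whole numbers and filtered by edgeR's filterByExpr. All 6 groups were fitted together with edgeR 4.0.16 (R 4.3.3, trimmed mean of M-values scaling). Groups were compared by its quasi-likelihood test with Benjamini-Hochberg adjustment over all features tested, at 0.05. The procedure was also run on simulated counts in which few features differed, which cannot check it where 73% were called. The depths, 12795066 to 30993705 counts over the 6 libraries used, set the floor of 3 counts given with the levels.

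Of 6542 ORFs listed, 5853 had the coordinates of a RefSeq R64 gene (spans include introns). The comparison and the gene lists were chosen with earlier results of these data known. Named genes were DIS3, SRM1, CSL4, RRP6, ENP1, PAB1, NAB2 and HRP1, the 10 ORFs with the largest changes each way at a mean of 10 CPM or more, 3 each way of every other class without overlap at the same minimum, 3 called members with the smallest adjusted p of each list and direction, and the members that define a list. Other features, among them the ORFs without overlap with the largest changes, PFK1, HXK2, SSC1, BTN2, IDH1, RPT3, RRP12, GSP1, YRB1, KAP122, snR30, YRF1-1, YLL067C, the ribosomal DNA features, the NUTs over snoRNA genes and the family sums, were chosen after their values were seen. There were 12 planned and 2 added alternatives, with DESeq2 1.42.0 among them.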

Additional observations from a re-analysis of the deposited data

How the results depend on the processing

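The main fit tested 10564 features, that of the compared groups alone 10152 and that without the filter 10986. The counts of higher and lower calls kept within 1.5 times of 3844 and 3866 under median-ratio scaling, scaling on ORFs and no filter on low counts. They did so too for the compared groups alone, DESeq2 and each left-out library. They ranged from 3512 to 3584 and from 3518 to 3596 when 1 of the 4 compared libraries was left out. Scaling on ORFs gave 4120 and 3584, with a median shift of 0.051. The fit with a replicate block gave 3743 higher and 3758 lower, and it is no better founded, because replicate numbers do not pair the samples (correlations of deviations of −0.0127 to 0.0168).
Among features without overlap 1393 were higher and 1590 lower, including 23 and 33 CUTs, 18 and 2 NUTs, and 58 and 43 ORFs near chromosome ends.
Scaling on ORFs gave 4 proteasome genes higher and 1 NUT over a snoRNA gene lower, and turned CAN1 to 0.08 (adjusted p = 0.0205), while it was not called in the other settings (−0.02 to 0.02).
The a-specific list gained 1 gene lower in the fit of the compared groups alone, with DESeq2 and with counts summed over overlapping features.
That last setting and the removal of ribosomal RNA features were chosen after seeing the data. Summing gave 5 heat shock, 5 histone and 10 pheromone response genes higher, and turned MET17 to −3.16, against 3.62.
Leaving out 1 compared library or csl4-ph replicate 1 gave 5 to 8 Ran genes, 20 to 31 CUTs without overlap, 1 to 3 NUTs over snoRNA genes and 2 to 5 box C/D snoRNAs as lower. The causes were not tested.
Among named genes SRM1 lost its call in 5 settings, and NRD1 in 1, with DESeq2 (adjusted p = 0.21). With 2 libraries a group, no single library can be told apart from its group as an outlier.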
